A study of Mus musculus with 18 samples.

Results

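Genes whose proteins shorten the life of messenger RNA were followed in regulatory and conventional CD4 T cells of mouse fat, thymus and lymph node. They are Zfp36, Zfp36l1, Zfp36l2, Rc3h1, Zc3h12a, Btg1 and Btg2, 7 genes of the 18193 that the array platform measures with a probe set of a single gene symbol. The 7 genes have 14 such probe sets. Each gene was read from the probe set with the highest mean over the 18 arrays, and the other 7 probe sets served as a check. All 7 genes passed the filter on dim values that 12821 genes passed.

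Regulatory T cells (Treg) were sorted as CD25+ and conventional T cells (Tconv) as CD25-. All sorts kept CD4+ cells without B220, CD11b and CD8a. Fat Treg and fat Tconv came from the epididymal fat of male C57BL/6 mice of 25 to 35 weeks, with TCRb+ added to the sort. Thymus Treg and thymus Tconv came from 4 to 6 weeks old BDC2.5/NOD mice, a NOD line with a transgenic T cell receptor, after depletion of CD8a cells. Lymph node Treg and lymph node Tconv came from cervical, inguinal and mesenteric nodes of C57BL/6 mice of 32 to 36 weeks. Each of the 6 groups had 3 arrays, each from a pool of 8 to 10 mice for fat and of 3 to 6 mice for thymus and lymph node. A p-value therefore measures the spread between pools. RNA of all groups was amplified before labelling. No sex was stated for thymus and lymph node mice. Thymus differs from fat and from lymph node in strain and age as well as in tissue, so these cannot be told apart. Most thymus arrays also fall in other runs of array file numbers, as given below. CD25 alone separated Treg from Tconv in the sort.

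Cells adjust cytokine output by controlling how long each mRNA lasts. Proteins of the ZFP36 family have zinc fingers that bind AU-rich elements of short-lived mRNAs and bring the CCR4-NOT complex, which removes the poly(A) tail. Roquin-1, encoded by Rc3h1, and Regnase-1, encoded by Zc3h12a, recognise stem-loops in mRNAs such as those of Icos and Tnfrsf4; Regnase-1 cuts the RNA itself. BTG1 and BTG2 bind CCR4-NOT and poly(A)-binding protein, speed deadenylation and help to keep naive mouse T cells quiescent. In mice, loss of Zfp36 gives inflammation driven by TNF, a mutation of Rc3h1 gives lupus-like disease, and Zc3h12a restrains T cell activation.

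The genes that encode the ZFP36 family and BTG2 are known for rapid induction after stimulation. The promoters of Zfp36, Zc3h12a and Btg2 are shown because each of these genes was called higher in Treg of fat than of lymph node. RefSeq promoters of 300 bases (250 before and 50 after the gene start, build GRCm38.p6) matched 6 of the 7 genes, all but Zfp36l2. Capitals mark matches to any of 8 motifs searched on both strands. The cAMP response element was searched as TGACGTCA, the EGR site as GCGTGGGCG and the GC box as GGGGCGGGG. The site of AP-1 factors was searched as TGANTCA, where N is any base. The core promoter box that binds TBP was searched as TATAAA. The box that binds the factor NF-Y was searched as CCAAT. The serum response factor site (CArG box) and the NF-kB site were searched in their usual forms. The Zfp36 promoter lies at chr7:28379179-28379478, that of Zc3h12a at chr4:125127832-125128131 and that of Btg2 at chr1:134079106-134079405, all on the minus strand.
Zfp36: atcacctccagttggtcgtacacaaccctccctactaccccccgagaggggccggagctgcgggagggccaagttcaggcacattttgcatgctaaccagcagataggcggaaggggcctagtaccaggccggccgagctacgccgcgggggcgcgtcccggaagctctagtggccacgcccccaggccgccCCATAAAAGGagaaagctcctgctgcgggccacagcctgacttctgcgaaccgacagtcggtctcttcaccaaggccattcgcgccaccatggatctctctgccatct
Zc3h12a: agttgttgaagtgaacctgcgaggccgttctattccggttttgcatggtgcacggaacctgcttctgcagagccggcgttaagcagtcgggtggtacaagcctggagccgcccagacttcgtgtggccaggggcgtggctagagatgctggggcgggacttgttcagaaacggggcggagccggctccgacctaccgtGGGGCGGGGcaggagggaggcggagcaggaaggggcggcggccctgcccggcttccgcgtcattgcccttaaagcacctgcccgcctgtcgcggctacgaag
Btg2: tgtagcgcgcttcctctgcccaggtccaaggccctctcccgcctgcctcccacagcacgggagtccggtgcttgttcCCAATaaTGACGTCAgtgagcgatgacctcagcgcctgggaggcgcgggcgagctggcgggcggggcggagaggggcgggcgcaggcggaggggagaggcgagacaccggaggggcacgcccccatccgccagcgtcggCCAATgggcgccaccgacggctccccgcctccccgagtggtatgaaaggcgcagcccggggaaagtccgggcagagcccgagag
In Zfp36 the capitals are a CArG box that begins 58 bases before the gene start, a match held by 1.63% of 32851 promoters of the same length. In Zc3h12a they are a GC box 52 bases before the start, held by 11.4% of promoters. In Btg2 they are a cAMP response element 166 bases before the start, held by 1.79%, and CCAAT boxes 173 and 34 bases before it, held by 37.4%. The Btg2 element and the first CCAAT box lie close together without overlap. Among the other matched promoters, those of Zfp36l1 and Rc3h1 held the AP-1 letters (7.81% of promoters) and those of Zfp36l1 and Btg1 the TATA letters (13.6%). The EGR letters (0.612%) and the NF-kB site (4.51%) had no match in the 6. A match is a string of letters and not a measured site.

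Values are array intensities on a linear scale as deposited. Treg and Tconv of 1 tissue were compared on these values. The 6 fat arrays had medians of 76.9 to 82.2 and the other 12 arrays medians of 57.9 to 63.03, so levels between tissues are given after quantile normalization of all 18 arrays. A gene is called, and is said to be higher or lower, at a limma adjusted p under 0.05 over all 12821 genes. The median difference of all genes lay between -0.03 and 0.03 in each comparison. The sorted identity held in the RNA: 5 of 6 Treg markers were higher in fat Treg than in fat Tconv, and 6 of 6 were higher in Treg of thymus and of lymph node. Of these markers, Il2ra encodes CD25 itself, so its difference follows from the sort. Foxp3, the Treg lineage factor, averaged 1315, 810 and 972 in Treg of fat, thymus and lymph node, against 75.7, 35.9 and 48.1 in the Tconv of the same tissues. In bulk RNA of sorted cells, fewer cells with a transcript and less of it per cell cannot be told apart.

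Treg and Tconv differed in 4 of the 7 genes in fat, in 3 in thymus and in 1 in lymph node. In fat, Zfp36, Zc3h12a and Zfp36l1 were higher in Treg and Zfp36l2 was lower, 4 of 7 genes, where 11.5% of all genes tested were called (6.32% higher and 5.19% lower). In thymus, Zfp36l1 was higher in Treg and Zfp36 and Btg2 were lower, 3 of 7 against a background of 4.98% (3.21% higher and 1.77% lower). In lymph node, Zfp36l1 alone was higher, 1 of 7 against 4.32% (3.21% higher and 1.11% lower). Treg and Tconv arrays did not overlap for 5 of 7 genes in fat, 4 in thymus and 1 in lymph node, against 25.2%, 19.3% and 16.5% of all genes. In every tissue the deviations of a Treg array from its group correlated with those of the Tconv array of its number (0.35 to 0.68). With that number as a block, the thymus count was 5 of 7: Zfp36l2 (adjusted p = 0.0341) and Rc3h1 (adjusted p = 0.032) were then also called lower.

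**Figure D1:**
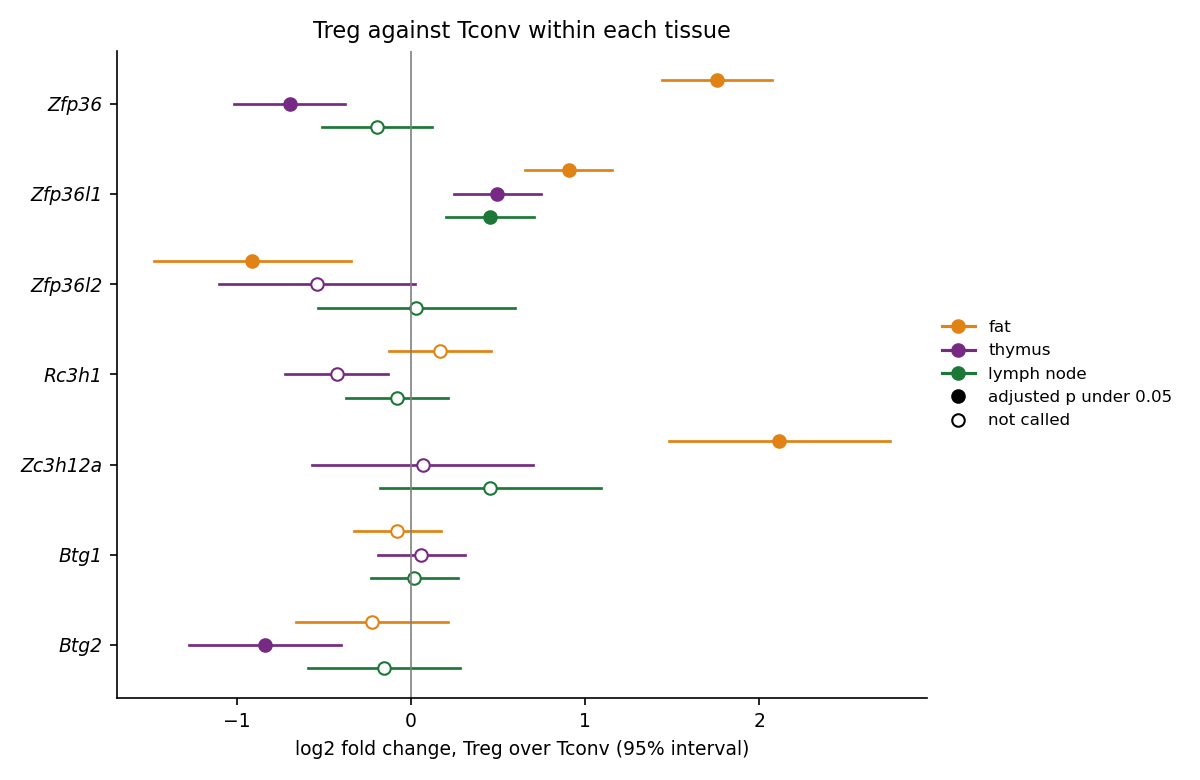
Log2 fold change of Treg over Tconv on deposited values for each gene in fat, thymus and lymph node, with 95% intervals from limma (3 arrays per group); filled points have an adjusted p under 0.05. Zfp36 stands at 1.76 in fat and -0.70 in thymus, and Zfp36l1 is the gene with filled points in all 3 tissues.

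Zfp36 encodes tristetraprolin, the founding ARE-binding member of its family and a brake on TNF. Its intensity was 5535, 5989 and 4703 in the 3 fat Treg arrays, against 1675, 1377 and 1749 in fat Tconv. Every fat Treg array lay above every fat Tconv array. The difference was 1.76 ± 0.15 (log2, SE), or 3.38-fold, with an adjusted p of 2.85e-07. Zfp36 was 405, 374 and 468 in thymus Treg, against 709, 637 and 669 in thymus Tconv. Here the order was turned round, with every Treg array below every Tconv array and a difference of -0.70 ± 0.15 (adjusted p = 0.00865). In lymph node the groups overlapped, with 625, 591 and 789 in Treg and 775, 670.3 and 842 in Tconv, and the gene was not called (-0.19, 95% interval -0.51 to 0.12).

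The labels number the array files. These numbers fall into 5 runs of close numbers, each with Treg and Tconv arrays, and the labels do not say what a run is. Runs 1 and 2 hold thymus arrays only. Fat and lymph node arrays fall in runs 3, 4 and 5, and run 3 also holds thymus arrays. Within runs 3, 4 and 5 the fat Treg minus Tconv difference of Zfp36 was 1.43, 2.12 and 1.72. Within runs 1, 2 and 3 the thymus difference was -0.81, -0.77 and -0.52. Each run gave the direction of its tissue. The fat and thymus calls of Zfp36 held with any 1 array left out.

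The Treg difference of Zfp36 was itself different between tissues. It was 1.95 ± 0.21 larger in fat than in lymph node (log2, SE; adjusted p = 1.55e-05), where 4.85% of genes were called. It was 2.46 ± 0.21 larger in fat than in thymus (adjusted p = 7.05e-07), where 6.19% were called. Both tests share the fat arrays, and fat and thymus mice differed in strain and age as well. Between thymus and lymph node the difference was -0.50 (adjusted p = 0.815). Of the 7 genes, 2 (Zfp36 and Zc3h12a) were called for fat against lymph node and for fat against thymus. For thymus against lymph node limma called none of the 7, where 0.304% of genes were called, and 2 of 7 had an unadjusted p under 0.05.

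On the common scale, Zfp36 was 4314, 4800.3 and 3713 in fat Treg, against 630, 606 and 942 in lymph node Treg. It was 1602, 1177 and 1449 in fat Tconv, against 776, 748 and 1023 in lymph node Tconv. All fat arrays lay above all lymph node arrays of the same cell type. The difference was 2.58 ± 0.18 in Treg (5.98-fold, adjusted p = 1.01e-08) and 0.73 ± 0.18 in Tconv (1.66-fold, adjusted p = 0.00712). Within runs 3, 4 and 5 it was 2.56, 2.98 and 2.19 in Treg and 0.90, 0.65 and 0.65 in Tconv. With the replicate number as a block over 6 arrays, the Tconv difference had an adjusted p of 0.0572; these numbers do not pair fat with lymph node arrays.

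**Figure D2:**
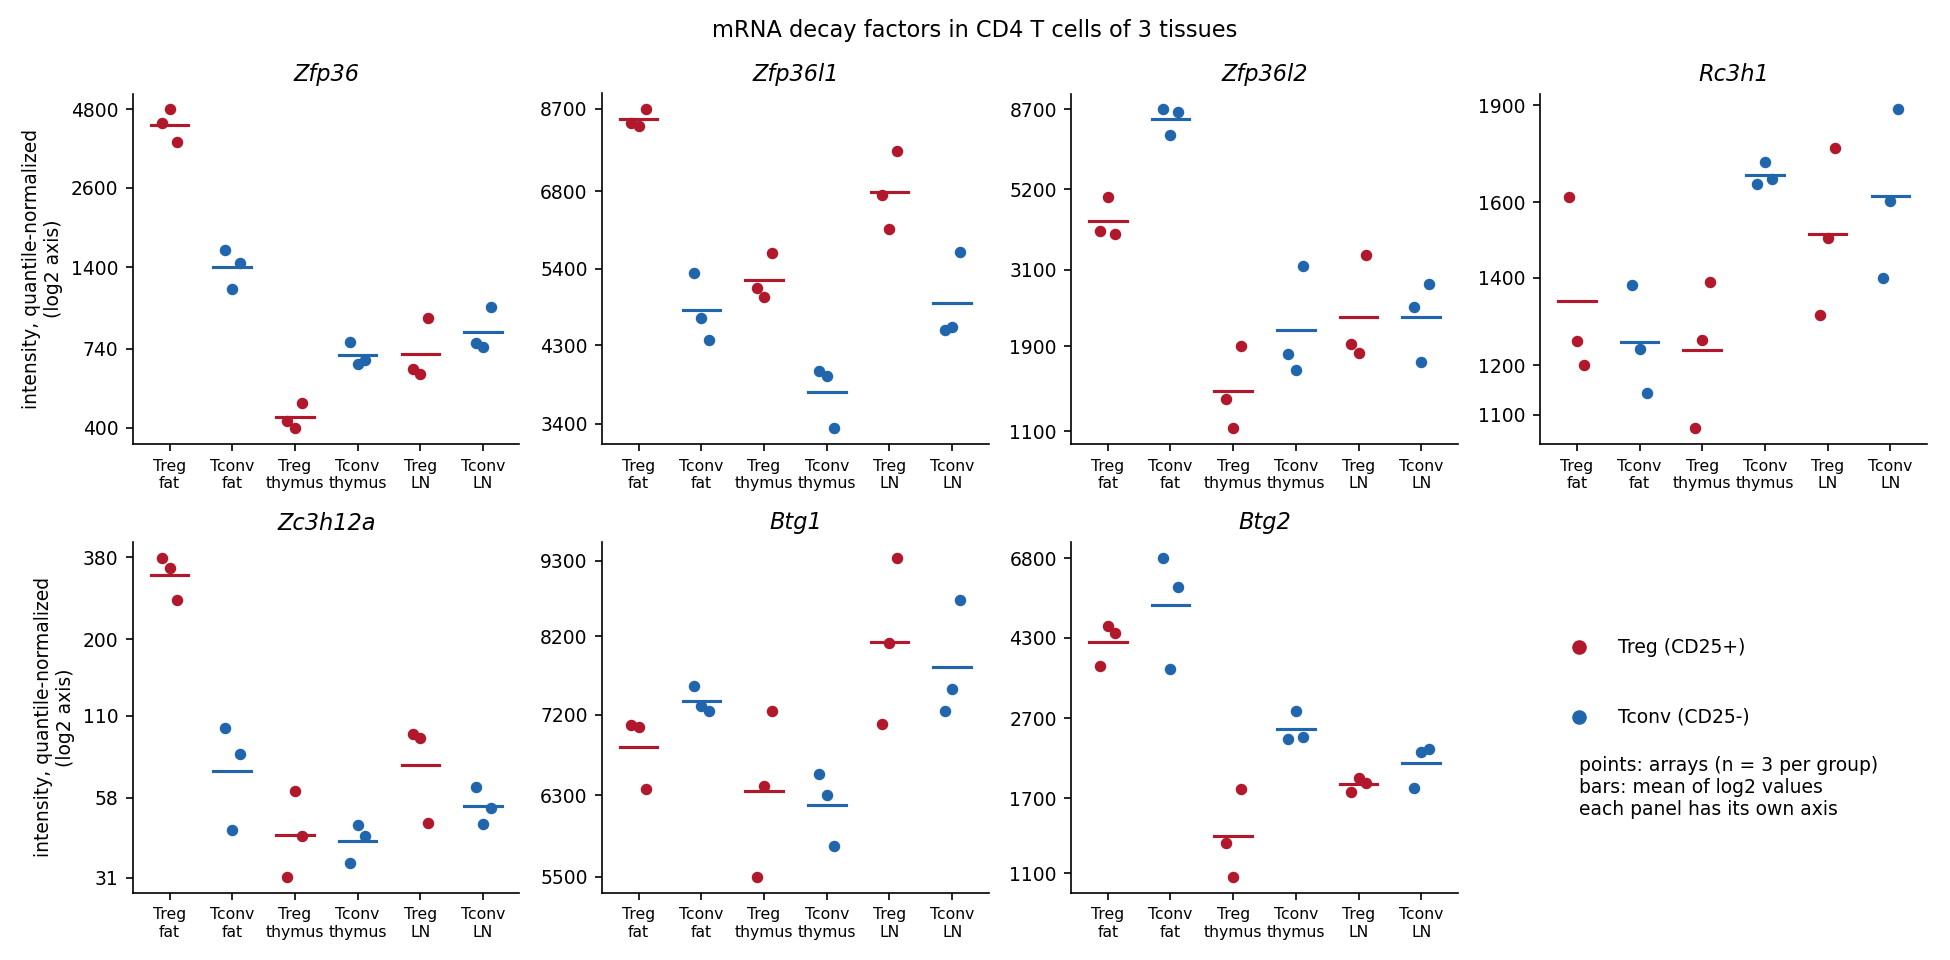
Intensity after quantile normalization (log2 axis, 1 panel and axis per gene) in Treg and Tconv of fat, thymus and lymph node; points are arrays (n = 3 per group) and bars are means of log2 values. The 3 fat Treg arrays of Zfp36 (3713 to 4800) and Zc3h12a (272 to 379) lie above all other arrays, while Zfp36l2 is highest in fat Tconv and Rc3h1 and Btg1 vary little between groups.

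Zfp36l1 encodes a second ARE-binding protein of the family, which in mouse thymocytes acts with Zfp36l2 to restrain proliferation. Its intensity was 10555, 10391 and 11434 in fat Treg, against 6134, 5701 and 5462 in fat Tconv. It was 4617, 4426 and 5317 in thymus Treg, against 3509.4, 3427 and 3216 in thymus Tconv. It was 6270.1, 5443 and 6329 in lymph node Treg, against 4281, 4029 and 4860.1 in lymph node Tconv. In each tissue the 3 Treg arrays lay above the 3 Tconv arrays, and Zfp36l1 was the gene of the 7 called higher in Treg in all 3 tissues. The difference was 0.90 ± 0.12 in fat (1.87-fold, adjusted p = 3.93e-05), 0.50 ± 0.12 in thymus (adjusted p = 0.0186) and 0.46 ± 0.12 in lymph node (adjusted p = 0.0365).

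Within the runs of each tissue, the difference of Zfp36l1 was 1.07, 0.87 and 0.78 in fat, 0.40, 0.37 and 0.73 in thymus and 0.55, 0.43 and 0.38 in lymph node. The fat difference of Zfp36l1 was called whichever array was left out. The lymph node call was lost without Tconv replicate 1 or 2 or Treg replicate 1 or 3, with adjusted p of 0.12, 0.18, 0.149 and 0.13. The thymus call was lost without Tconv replicate 2 or 3 or Treg replicate 3, with 0.0609, 0.0824 and 0.0633. With 6 arrays in the fit the adjusted p was 0.169 in lymph node and 0.104 in thymus. With the replicate number as a block it was 0.0242 in lymph node and 0.0123 in thymus. The Treg difference in fat minus that in lymph node (0.45, adjusted p = 0.184) or in thymus (0.41, adjusted p = 0.211) was not called. With the mean of both Zfp36l1 probe sets in place of the brighter one, these values were 0.81 (adjusted p = 0.00867) and 0.71 (adjusted p = 0.0199).

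Between fat and lymph node, Zfp36l1 was not called on the common scale. Treg of fat averaged 8426 ± 220.2 (SD, n = 3), against 6824 ± 796 in Treg of lymph node, a difference of 0.31 (adjusted p = 0.0809; 0.0418 without lymph node Treg replicate 3). Tconv averaged 4786 ± 496 in fat and 4906 ± 672 in lymph node (-0.03, 95% interval -0.31 to 0.25). These values depend on the scale: as deposited the differences were 0.85 in Treg and 0.40 in Tconv, both called. With each array centred on its median, the Treg difference was 0.42 and called by limma (adjusted p = 0.00606). With the mean of both probe sets on the common scale, the differences were 1.23 in Treg and 0.44 in Tconv, both called. A second, dimmer Zfp36l1 probe set (mean intensity 131) was called higher in fat Treg than in fat Tconv (1.48), and higher in fat than in lymph node for Treg (2.14) and Tconv (0.92). For Treg over Tconv it was not called by limma in thymus (0.47, adjusted p = 0.23) or lymph node (0.30, adjusted p = 0.745). With the mean of both probe sets the lymph node difference was 0.38 (adjusted p = 0.126) and not called, while the thymus call was kept.

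Zfp36l2, the third ARE-binding member, ran the other way in fat. Its intensity was 5159, 6099.9 and 4993 in fat Treg, against 10648, 9185 and 10701 in fat Tconv. All fat Treg arrays lay below all fat Tconv arrays, and the difference was -0.91 ± 0.27 (0.532-fold, adjusted p = 0.033). In the same tissue, then, Zfp36 and Zfp36l1 were higher and Zfp36l2 lower in Treg. Leaving out 1 array ended the Zfp36l2 call in 5 of 6 cases, with adjusted p of 0.0982 and 0.113 without Treg replicate 1 or 3. It was 0.0755, 0.0569 and 0.105 without Tconv replicate 1, 2 or 3. Within runs 3, 4 and 5 the difference was -1.10, -0.59 and -1.05. With the mean of the 3 Zfp36l2 probe sets the adjusted p was 0.0531, and with the replicate number as a block it was 0.000769.

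Zfp36l2 was 1296, 1058 and 1821 in thymus Treg, against 1630.4, 1538 and 3067 in thymus Tconv. It was 1844, 1704 and 2886 in lymph node Treg, against 2354, 1541 and 2345 in lymph node Tconv. The groups overlapped in both tissues, and replicate 3 was the highest array of 3 of these 4 groups. The difference was -0.54 in thymus (adjusted p = 0.368) and 0.03 in lymph node (adjusted p = 0.993). The Treg difference in fat minus that in lymph node was -0.94 (adjusted p = 0.23; 0.0126 with the replicate number as a block).

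Zfp36l2 was higher in fat than in lymph node in both cell types. On the common scale it was 3989, 4932 and 3895 in fat Treg, against 1920, 1823 and 3404 in lymph node Treg. It was 8678, 7362 and 8529.6 in fat Tconv, against 2447, 1717 and 2836 in lymph node Tconv. No fat array overlapped a lymph node array of its cell type. The difference was 0.90 ± 0.28 in Treg (adjusted p = 0.0185) and 1.84 ± 0.28 in Tconv (3.58-fold, adjusted p = 0.000123). The Treg call was lost without fat Treg replicate 2 or lymph node Treg replicate 1 or 2, with adjusted p of 0.0715, 0.0777 and 0.0899. Within runs 3, 4 and 5 the difference was 1.02, 1.44 and 0.23 in Treg and 1.80, 2.10 and 1.61 in Tconv. With the mean of the 3 probe sets the Treg difference was 0.31 (adjusted p = 0.118). The 2 dimmer probe sets of Zfp36l2 (mean intensities 82.9 and 64.1) were called in none of these comparisons.

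Rc3h1 encodes Roquin-1, a RING-finger protein that binds stem-loops and recruits deadenylation. Its arrays lay in a narrow band, from 1428 to 1979 in fat Treg and from 1377 to 1445 in fat Tconv, as deposited. Thymus was the tissue with a gap: 1023, 1180.5 and 1339 in Treg, against 1510.1, 1602 and 1625 in Tconv. Every thymus Treg array lay below every thymus Tconv array, and the difference was -0.43 ± 0.14 (adjusted p = 0.102, called with the block given above, and 0.0441 without Treg replicate 3). Within runs 1, 2 and 3 it was -0.56, -0.44 and -0.28. Treg minus Tconv was 0.17 in fat (95% interval -0.13 to 0.46) and -0.08 in lymph node (-0.37 to 0.21), neither called. The Treg difference in fat minus that in thymus was 0.59 (adjusted p = 0.0943; 0.0304 with the block and 0.0454 without thymus Treg replicate 3). Fat minus lymph node was -0.17 in Treg (adjusted p = 0.421) and -0.37 in Tconv (adjusted p = 0.0999).

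Zc3h12a encodes Regnase-1, the endonuclease of the group. Its intensity was 425, 379 and 307 in fat Treg, against 119.6, 52.8 and 96.0 in fat Tconv. Every fat Treg array was far above the highest fat Tconv array. The difference was 2.12 ± 0.30 (4.34-fold, adjusted p = 8.3e-05), the largest Treg difference among the 7 genes, and within runs 3, 4 and 5 it was 1.68, 2.84 and 1.83. Fat Tconv replicate 2 (52.8) lay below the filter level of 65.9, and without it the fat difference was 1.78, still called. Outside fat the signal was low, near or below that level. It was 27.7, 55.0 and 39.1 in thymus Treg, against 32.2, 41.9 and 38.4 in thymus Tconv. It was 87.5, 82.7 and 45.1 in lymph node Treg, against 56.5, 43.3 and 51.8 in lymph node Tconv. Treg and Tconv overlapped in thymus (0.07) and in lymph node (0.46, adjusted p = 0.736).

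The Treg difference of Zc3h12a was 2.05 ± 0.43 larger in fat than in thymus (adjusted p = 0.00611) and 1.66 ± 0.43 larger in fat than in lymph node (adjusted p = 0.029). The second of these was lost without fat Treg replicate 1 or 2 or fat Tconv replicate 2, with adjusted p of 0.073, 0.0628 and 0.0731. It was also lost without lymph node Treg replicate 3 or Tconv replicate 1 or 3, with 0.0729, 0.068 and 0.0681. On the common scale Zc3h12a was 378, 349 and 272 in fat Treg, against 95.8, 92.8 and 47.7 in lymph node Treg. These groups did not overlap, and the difference was 2.14 ± 0.31 (4.39-fold, adjusted p = 3.96e-05). Within runs 3, 4 and 5 it was 1.504, 1.913 and 2.988. In Tconv, fat averaged 75.5 ± 28.0 and lymph node 54.8 ± 7.99, which was not called (0.40, adjusted p = 0.4). A second Zc3h12a probe set, with a mean of 55.4, gave 0.07 for fat Treg over fat Tconv and 0.01 for Treg of fat over lymph node, so the change rests on 1 probe set.

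Btg1 encodes a deadenylation adaptor that naive T cells hold at high level. As deposited its means (± SD, n = 3 each) were 8597 ± 468 in fat Treg and 9078 ± 38.2 in fat Tconv, 5879.5 ± 799 in thymus Treg and 5608 ± 206 in thymus Tconv, and 7168 ± 492 in lymph node Treg and 7071 ± 417 in lymph node Tconv. The Treg difference was -0.08 in fat (95% interval -0.33 to 0.17), 0.06 in thymus (-0.19 to 0.31) and 0.02 in lymph node (-0.23 to 0.27). On the common scale, fat minus lymph node was -0.25 in Treg (adjusted p = 0.154) and -0.08 in Tconv (adjusted p = 0.719). None of its 15 pairs of groups was called there, and the highest and lowest group differed by 1.31-fold on that scale. Another Btg1 probe set (mean 5758) gave -0.08 in Treg and -0.07 in Tconv for fat minus lymph node. A dimmer one (mean 1200) gave 1.06 in Treg (adjusted p = 0.0586 by limma) and 0.57 in Tconv. It gave 0.54 for fat Treg over fat Tconv, and none of these values was called.

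Btg2 encodes the related adaptor, a transcript that p53 and growth signals induce. Its intensity was 4720, 5804 and 5698 in fat Treg, against 7945, 4305 and 7274 in fat Tconv. The groups overlapped, with fat Tconv replicate 2 below all fat Treg arrays and the other fat Tconv arrays above them (-0.22, adjusted p = 0.654). Btg2 was 1256, 1017 and 1722 in thymus Treg, against 2144, 2518 and 2343 in thymus Tconv. All thymus Treg arrays were below all thymus Tconv arrays, with a difference of -0.84 ± 0.21 (0.558-fold, adjusted p = 0.0214). That call was lost without Tconv replicate 2 or 3 or Treg replicate 1 or 2, with adjusted p of 0.0983, 0.0646, 0.0762 and 0.125. Within runs 1, 2 and 3 the difference was -0.77, -1.31 and -0.44, and with the replicate number as a block its adjusted p was 0.0174. A second Btg2 probe set (mean 366) gave -0.15 there, not called, and the mean of both an adjusted p of 0.279. In lymph node the Treg difference was -0.15 (95% interval -0.59 to 0.28).

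Btg2 was higher in fat than in lymph node in both cell types. On the common scale it was 3646, 4602 and 4420.5 in fat Treg, against 1765, 1907 and 1858 in lymph node Treg. It was 6821, 3584 and 5769 in fat Tconv, against 1799, 2214 and 2264 in lymph node Tconv. No fat array overlapped a lymph node array of its cell type. The difference was 1.19 ± 0.21 in Treg (2.28-fold, adjusted p = 0.000313) and 1.32 ± 0.21 in Tconv (2.50-fold, adjusted p = 0.000214). The second probe set gave 1.31 in Treg and 1.51 in Tconv, both called. Within runs 3, 4 and 5 the difference was 1.32, 1.27 and 0.97 in Treg and 1.68, 0.70 and 1.59 in Tconv.

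Fat against lymph node thus gave 4 called genes of 7 in Treg, all higher (Zfp36, Zc3h12a, Btg2 and Zfp36l2), where 34.2% of all genes were called and 16.1% were called higher. In Tconv it gave 3 of 7, all higher (Zfp36l2, Btg2 and Zfp36), against 22.5% called and 10.9% called higher. Lower calls made up 18.2% of all genes in Treg and 11.6% in Tconv, with none among the 7. Fat and lymph node arrays did not overlap for 6 of 7 genes in Treg and 4 in Tconv, against 49.5% and 36.3% of all genes. On the deposited scale 5 of 7 were called in Tconv. Strain was the same in these groups, the ages overlapped, and the sort of fat cells alone used TCRb. Fat mice were male, and no sex was stated for lymph node mice. Fat pools held 8 to 10 mice and lymph node pools 3 to 6.

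**Figure D3:**
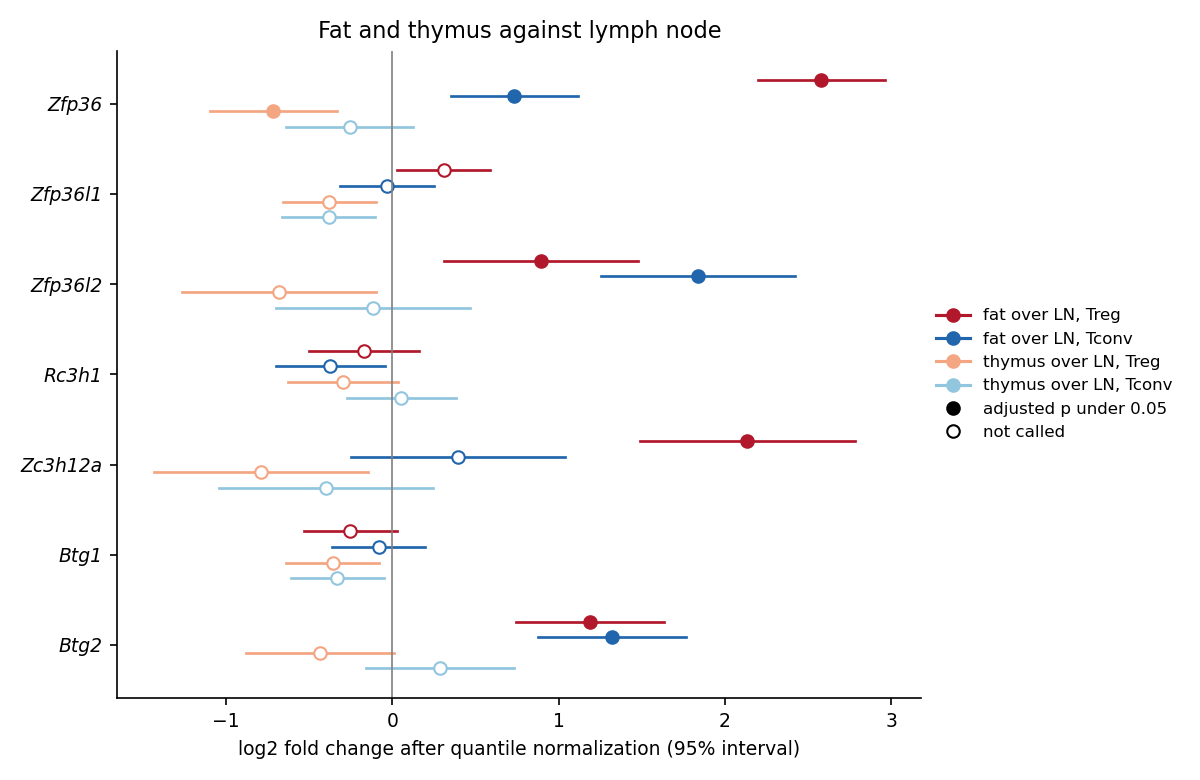
Log2 fold change of fat over lymph node and of thymus over lymph node, in Treg and in Tconv, after quantile normalization, with 95% intervals (3 arrays per group); filled points have an adjusted p under 0.05. Zfp36 in Treg stands at 2.58 for fat and -0.72 for thymus, and the thymus comparisons hold that single filled point.

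Thymus against lymph node gave 1 called gene of 7 in Treg, where 11.9% of genes were called (6.13% higher and 5.72% lower). Arrays did not overlap for 2 of 7 genes in Treg and 4 in Tconv, against 23.6% and 27.1% of all genes. Zfp36 was 423, 398 and 484 in thymus Treg, against 630, 606 and 942 in lymph node Treg, without overlap. The difference was -0.72 ± 0.18 (adjusted p = 0.0144). It was lost without lymph node Treg replicate 3 (0.0851) and without thymus Treg replicate 1 (0.0531) or 2 (0.0563). Within run 3, the run that holds arrays of both groups, it was -0.38. All 7 differences were negative in Treg over the 3 arrays per group, between -0.30 for Rc3h1 and -0.79 for Zc3h12a. Within run 3 they were not all negative: Rc3h1 had 0.08, Btg1 0.03 and Btg2 0.02. There Zfp36l2 had -0.01, Zfp36l1 -0.25 and Zc3h12a -1.15, each from 1 array per group. Without lymph node Treg replicate 3 Zc3h12a had an adjusted p of 0.0281, and without thymus Treg replicate 3 Btg1 had one of 0.042. In Tconv limma called none of the 7 genes, against 8.89% of all genes (4.38% higher and 4.51% lower), and 2 of 7 had an unadjusted p under 0.05. Fat and thymus were set against the same lymph node arrays.

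Read across all 6 groups, the genes had different orders of level. Zfp36 went, from high to low, through fat Treg, fat Tconv, lymph node Tconv, lymph node Treg, thymus Tconv and thymus Treg, and its highest and lowest group differed 9.82-fold. In that order fat Treg and fat Tconv differed (adjusted p = 6.65e-06), as did fat Tconv and lymph node Tconv and the 2 thymus groups (adjusted p = 0.0287), while lymph node Treg did not differ from its neighbours. Zc3h12a was highest in fat Treg, followed by lymph node Treg (adjusted p = 3.96e-05 for that step), and the other steps were not called. Its lymph node Tconv and thymus groups lay below the filter level, so no span is given. Zfp36l2 was highest in fat Tconv and then fat Treg (adjusted p = 0.0317), followed by both lymph node and then both thymus groups, a span of 5.74-fold. Btg2 was highest in fat Tconv, then fat Treg, and the step from fat Treg to thymus Tconv was called (adjusted p = 0.00979) within a span of 3.82-fold. Zfp36l1 stood highest in Treg of fat, lymph node and thymus and below that in the 3 Tconv groups, with no neighbours called over 2.25-fold. For Rc3h1 the span was 1.36-fold, with 1 of 15 pairs called, thymus Tconv against fat Tconv. On the deposited scale 1 of 7 genes kept its full order.

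By Pearson correlation over the 18 arrays on the common scale, which share groups and runs, the genes most like Zfp36 were Arhgap23 (0.97), Yes1 (0.96) and Nhsl2 (0.95). Those most like Zc3h12a were Msrb3 (0.96), Nfkbib (0.95) and Cxcl10 (0.94). For Zfp36l1 they were Tspan13, Arnt2 and Gnaq (each 0.91), for Zfp36l2 Ythdf3 (0.93), Sorl1 (0.92) and Dcaf5 (0.92), and for Btg2 Rab35 (0.93), Vps37b (0.92) and Mink1 (0.91). For Rc3h1 they were Slfn5 (0.91), Pik3ca (0.87) and Ubl4b (0.87), and for Btg1 Supt20 (0.89), Kansl1 (0.88) and Tgfbrap1 (0.88). Among the 7 genes, Zfp36l2 and Btg2 had a correlation of 0.87, Zfp36 and Zc3h12a of 0.86, and Zfp36l2 and Zfp36l1 of 0.18.

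For the lists that follow, these shares of all genes were called higher and lower. Treg over Tconv gave 6.32% and 5.19% in fat, 3.21% and 1.77% in thymus and 3.21% and 1.11% in lymph node. Fat over lymph node gave 16.1% and 18.2% in Treg and 10.9% and 11.6% in Tconv. Of the other RNA-binding factors of AU-rich elements and stem-loops, 12 were tested. By limma none was higher in fat Treg than in fat Tconv and 1 was lower (list median -0.03, all genes 0.01). That gene was Arid5a, which shields Il6 and other stem-loop mRNAs from Regnase-1: 218 ± 29.3 in fat Treg, against 448 ± 109.9 in fat Tconv (-1.02 ± 0.18, adjusted p = 0.000737). Between fat and lymph node Treg, 0 were higher and 6 were lower (median -0.38, all genes 0.01). They include Zc3h12d, a Regnase relative (-1.94, adjusted p = 4.26e-05), Tia1, a translational silencer (-0.90, adjusted p = 9.32e-05), and Rc3h2, which encodes Roquin-2 (-0.77, adjusted p = 0.00459). In Tconv 1 was higher, Arid5a (0.89), and 4 were lower, among them Nufip2, a Roquin partner (-1.09), Tia1 (-1.05) and Zc3h12d (-0.84). Zc3h12d was also lower in thymus than in lymph node, in Treg (-1.77) and in Tconv (-2.10).

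In fat 1 of 20 genes of CCR4-NOT, its adaptors and other deadenylation factors was higher in Treg, the BTG-family adaptor Tob2 (0.88, adjusted p = 0.0351), and 1 was lower, the regulatory subunit Cnot3 (-0.51, adjusted p = 0.023). In thymus the adaptor Tob1 was higher (0.94, adjusted p = 0.0376) and Cnot3 lower (-0.50, adjusted p = 0.0467), and in lymph node limma called none of 20. Between fat and lymph node the adaptors Tob2 and Tob1 were higher in both cell types. Tob2 averaged 3852 ± 363 in fat Treg and 547 ± 113 in lymph node Treg (2.83), and 2384 ± 982 in fat Tconv and 559 ± 151 in lymph node Tconv (2.04). Tob1 differed by 1.17 in Treg and 1.98 in Tconv. The list as a whole had 3 higher and 7 lower in Treg (median -0.22) and 2 higher and 7 lower in Tconv (median -0.23); the lower ones include Cnot3 (-1.03 in Treg) and the deadenylase Parn (-1.02 in Treg).

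Among 17 genes of decapping and decay from the 5-prime end, Lsm1 (-0.64) and Edc3 (-0.61) were lower in fat Treg than in fat Tconv. Against lymph node, 1 was higher and 7 lower in fat Treg (median -0.41), and 2 were higher and 2 lower in fat Tconv. Dcp2, the decapping enzyme, was lower in both (-1.19 in Treg and -1.35 in Tconv), and its coactivator Pnrc1 was higher in both (0.72 and 0.92). Of 13 exosome genes, none was called between Treg and Tconv in fat, thymus or lymph node by limma. Against lymph node 4 were lower in fat Treg, led by Exosc8 (-1.01), and 4 in fat Tconv, led by Exosc7 (-0.89). Of 6 genes of nonsense-mediated decay, Smg1 and Upf2 were lower in fat Treg (-1.25 and -0.58) and Smg1 in fat Tconv (-0.96). In these comparisons with lymph node, 34.2% of all genes were called in Treg (18.2% lower) and 22.5% in Tconv (11.6% lower).

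Of the transcripts that these factors are known to bind or destabilise, 21 were tested. Of these, 10 were higher and 3 lower in fat Treg than in fat Tconv (median 1.10, all genes 0.01). There 6.32% of all genes were called higher and 5.19% lower. The neutrophil chemokine Cxcl3 averaged 1924 ± 185 in fat Treg and 12.9 ± 5.09 in fat Tconv, below the filter level of 65.9, so no fold is given (adjusted p = 6.4e-14). The suppressive cytokine Il10 averaged 6118 ± 505 in fat Treg and 221 ± 34.1 in fat Tconv (4.80). Cxcl2, another such chemokine, averaged 12107 ± 1113 in fat Treg and 997 ± 444 in fat Tconv (3.69). Lower in fat Treg were Ifng, the type 1 helper cytokine (-5.02), the transcription factor Bhlhe40 (-0.90) and Il2 (-0.63). In thymus 4 were higher and 0 lower, led by Tnfrsf4 (3.00), Bhlhe40 (2.50) and Pim1 (2.38). In lymph node 6 were higher and 0 lower, led by Tnfrsf4 (2.59) and Pim1 (1.41), with Cxcl2 below the filter level in both groups. Against lymph node, 16 were higher and 0 lower in fat Treg (median 1.99), and 16 and 0 in fat Tconv (median 1.56), where Cxcl2 (5.50), Ifng (5.32) and Bhlhe40 (4.45) led. Cxcl2 averaged 18.1 in lymph node Tconv, below the filter level. In fat Treg against fat Tconv, Zfp36, Zc3h12a and Zfp36l1 were higher and Zfp36l2 lower, beside 10 of 21 targets higher and 3 lower. A link between the factors and these targets was not tested.

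**Figure D4:**
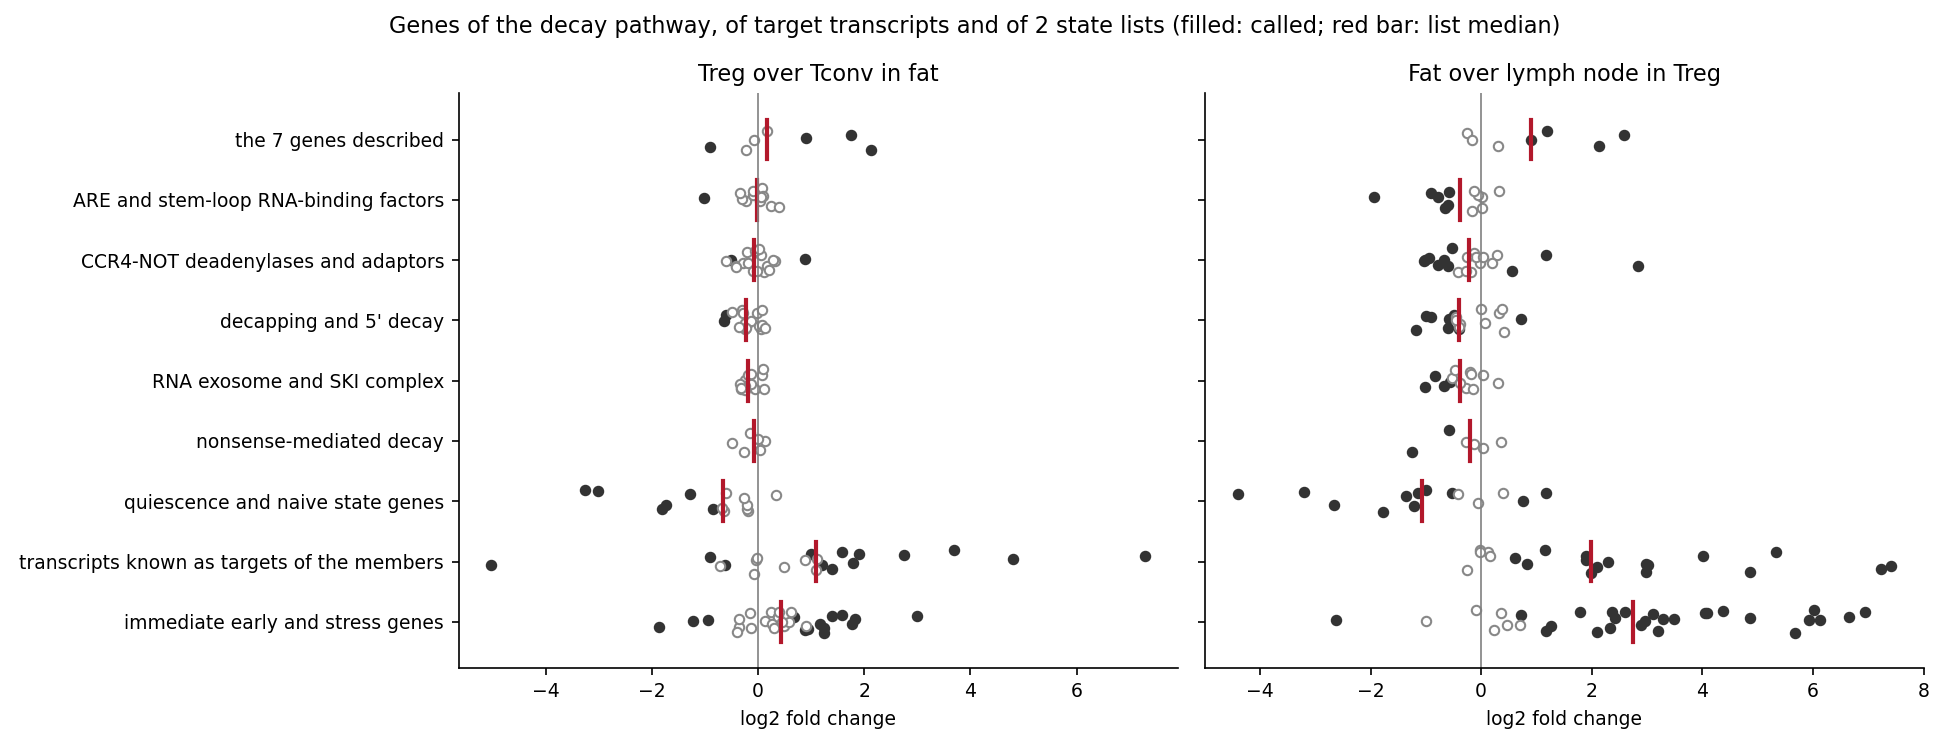
Log2 fold change of single genes (points) in the 7 genes described and 8 lists, for Treg over Tconv in fat (deposited values) and for fat over lymph node in Treg (after quantile normalization); filled points have an adjusted p under 0.05 and red bars are list medians. Known targets and immediate early genes reach furthest to the right, with medians of 1.10 and 0.42 for Treg over Tconv and 1.99 and 2.74 for fat over lymph node, and quiescence genes lie to the left, at -0.66 and -1.07.

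Immediate early and stress genes, which cells switch on within minutes of stimulation or handling, were higher in fat together with Zfp36, Zfp36l2 and Btg2. Of 32 tested, 25 were higher and 1 lower in fat Treg than in lymph node Treg (median 2.74), and 27 higher and 1 lower in Tconv (median 3.05). The heat shock gene Hspa1a (6.94 in Treg and 8.17 in Tconv) led in both, with Fosb (6.65) and Klf4 (6.12) in Treg and Hspa1b (6.69) and Klf4 (5.55) in Tconv; Egr2 was lower (-2.63 and -0.91). Hspa1a and Klf4 in both lymph node groups and Fosb in lymph node Treg lay below the filter level, so the size of these differences rests on dim values. The summed intensity of the list ran from 119396 to 135970.5 in fat Treg, 86017 to 99855 in fat Tconv, 26011 to 29533 in thymus Treg, 20684 to 28387 in thymus Tconv, 29639 to 38373 in lymph node Treg and 20270 to 30096 in lymph node Tconv. Between fat Treg and fat Tconv, 11 were higher and 3 lower (median 0.42). Atf3 (2.99), Gadd45b (1.82) and Fosb (1.77) were higher, and Gadd45a (-1.86, dim in fat Treg), Hspa1a (-1.22) and Egr2 (-0.95) lower. Their part in the levels of Zfp36, Zfp36l2 and Btg2 was not tested.

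In thymus Treg, set against thymus Tconv, 8 genes of this list were higher and 1 lower, led by Rgs1 (4.07), Jun (2.18) and Gadd45b (1.66), with Egr1 lower (-0.94). Rgs1 and Jun lay below the filter level in thymus Tconv. Zfp36 and Btg2 were lower in the same Treg arrays. In lymph node 4 were higher, led by Rgs1 (3.15), Dusp1 (1.54) and Nr4a3 (1.21), and Zfp36 and Btg2 were not called.

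Quiescence and naive state genes, the state that Btg1 and Btg2 help to maintain, were also counted. Of 14 tested, 0 were higher and 6 lower in fat Treg than in fat Tconv (median -0.66), led by the repressor Bach2 (-3.27), the chromatin organiser Satb1 (-3.01) and the egress receptor S1pr1 (-1.80). Against lymph node, 2 were higher and 9 lower in fat Treg (median -1.07) and 2 higher and 6 lower in fat Tconv (median -0.29). Bach2 (-4.40 in Treg and -1.40 in Tconv), Satb1 (-3.20 and -1.48) and the homing receptor Ccr7 (-2.65 and -1.65) led the lower ones. In lymph node, Lef1 (-1.32) and Satb1 (-1.29) were lower in Treg, and in thymus Tob1 was higher.

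Thymus was set against the same lymph node arrays for the lists, with 11.9% of all genes called in Treg and 8.89% in Tconv. Of the 12 RNA-binding factors, 1 was higher and 1 lower in Treg, and 2 were higher and 1 lower in Tconv. Tia1 was higher in both (0.61 in Treg and 0.71 in Tconv) and Elavl1, which encodes the stabilising factor HuR, was higher in Tconv (0.57). Of the 20 deadenylation genes, 2 were higher in Treg and 3 in Tconv, with the deadenylase subunit Cnot8 (0.75 and 0.90) and Pan3 (1.02 and 1.08) in both. Of the known targets, 0 were higher and 6 lower in Treg and 0 higher and 3 lower in Tconv; Ifng was lower in both (-2.16 and -3.33). Of the immediate early genes, 0 were higher and 5 lower in Treg and 0 higher and 4 lower in Tconv, with Rgs1 lower in both (-0.92 and -1.81). Ifng and Rgs1 lay below the filter level in thymus Tconv.

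Transcripts of other cell types were present in the fat arrays. The sum of 13 macrophage and monocyte markers was 4195 to 6909 in fat Treg and 2388 to 3132 in fat Tconv, against 757 to 1168 over thymus and lymph node. Ccr2, which T cells also express, took 3016 of this in fat Treg and 941 in fat Tconv on average. Without Ccr2 the sum was 3186, 1237 and 3579 in fat Treg replicates 1 to 3 and 2626, 924 and 1977 in fat Tconv. The groups overlapped, but in each pair of arrays of the same number the Treg sum was the higher. All 11 tested markers other than Ccr2 had a positive difference of Treg over Tconv in fat (median 0.40, none called by limma), Ccr2 was called higher, and Itgam, encoding CD11b, averaged 20.1 in fat Treg and 23.7 in fat Tconv, below the filter level. Of 6 tested markers of MHC class II presenting cells, H2-Eb1 was higher in fat Treg than in fat Tconv, with 679.9 ± 196 in Treg and 323 ± 12.1 in Tconv (1.03 ± 0.19, adjusted p = 0.000858), and the other 5 were not called (list median 0.47). Its Treg difference was 0.97 larger in fat than in lymph node (adjusted p = 0.04) and 0.99 larger in fat than in thymus (adjusted p = 0.0305). The sum of all 7 measured markers of that list was 1818 to 3058 in fat Treg, 1246 to 1984 in fat Tconv, 615 to 770.2 in thymus Treg, 669 to 789 in thymus Tconv, 1504 to 1853 in lymph node Treg and 1108 to 2175 in lymph node Tconv. The adipocyte marker Fabp4 averaged 2084 in fat Treg and 1984 in fat Tconv, against 7.56 to 9.36 in the other groups. Stromal marker sums were 2619 to 7220 in fat Treg and 2520 to 5446 in fat Tconv, against 470 to 558 elsewhere. Of 12 macrophage markers tested, 10 were higher in fat Treg than in lymph node Treg and 6 higher in fat Tconv than in lymph node Tconv. Of 6 tested markers of immature thymocytes, 3 were higher and 0 lower in thymus than in lymph node, in Treg and in Tconv alike. Dntt averaged 2592 in thymus Treg and 1656 in thymus Tconv, against 109 and 356 in lymph node. Between thymus Treg and thymus Tconv, 0 were higher and 1 lower. Of 3 tested B cell markers, 1 was higher in Treg than in Tconv in thymus, and 1 in lymph node. The part of such cells in the differences between Treg and Tconv and between tissues was not tested.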

How the data were processed

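RNA of sorted T cell pools was measured on 18 Affymetrix M430v2 arrays, 3 in each of 6 groups. Per the series' design text, the authors ran RMA in GenePattern (version not given in the sources used here), and each deposited value is the linear intensity of 1 probe set. RMA corrects background and normalizes arrays against each other. The labels do not tell which arrays shared a normalization. Intensities have no read depth, and the number of arrays limits precision.

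Of 45101 probe sets, 34945 carried a single gene symbol, 932 several and 9160 none, and 64 were controls. Each of 18193 genes was represented by its probe set with the highest mean. Genes with a mean above 65.9, the overall median intensity, in at least 1 group were tested, which left 12821. limma 3.58.1 in R 4.3.3 was fitted to log2 values with 1 coefficient per group over all 18 arrays, without a block, and p-values were adjusted by Benjamini-Hochberg over all genes tested. Treg and Tconv of a tissue, and the tests of tissue differences in the Treg effect, used deposited values; tissues were compared after quantile normalization of all 18 arrays. No pseudocount was added. The fit was tested on simulated data.

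Replicate numbers paired Treg and Tconv arrays within a tissue: deviations of same-numbered arrays correlated at 0.51, 0.35 and 0.54 in fat, 0.56, 0.42 and 0.43 in thymus and 0.68, 0.40 and 0.61 in lymph node. Same-numbered arrays of a tissue also share a run of file numbers, so shared pools and shared runs cannot be told apart. Differences within runs and the replicate block within a tissue thus use the same pairs. Alternatives were the replicate block, other scalings, no filter, 6 arrays per fit, another eBayes setting, the mean of a gene's probe sets, and each array left out. The members and lists were chosen with earlier results of these data known. All 7 members are named, with the 3 largest called changes per direction in each list and the 3 genes most correlated with each member; some of these are given as counts only. List genes without a single-symbol probe set of that name were not analysed here. Ier3 stood in both the target and the immediate early list, and Tob1 in both the deadenylation and the quiescence list. Promoters are from RefSeq (GRCm38.p6).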

Additional observations from a re-analysis of the deposited data

Results flagged for a closer look

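The difference between Treg and Tconv was not the same in every tissue for 2 of the 7 genes, by a limma test of the difference itself on 3 arrays per group. For Zfp36 it was 1.95 larger in fat than in lymph node (log2, adjusted p = 1.55e-05) and 2.46 larger in fat than in thymus (adjusted p = 7.05e-07). All 3 fat Treg arrays lay above all 3 fat Tconv arrays, and all 3 thymus Treg arrays lay below all 3 thymus Tconv arrays. For Zc3h12a it was 1.66 larger in fat than in lymph node (adjusted p = 0.029) and 2.05 larger in fat than in thymus (adjusted p = 0.00611). Thymus mice also differed from fat mice in strain and age. The Zc3h12a values rest on 1 of 2 probe sets, and outside fat they lie near or below the filter level of 65.9.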

How the results depend on the processing

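Of 462 values of single genes under other settings, 438 kept their side of the threshold, 13 of them with a change of sign and no call on either side, while 11 lost their call, 10 gained one and 3 reversed. With 1 array left out, 513 of 546 kept their side, 28 lost and 5 gained a call and none reversed. The reversals were fat against lymph node in Tconv: Btg1 was 0.36 and Zfp36l1 0.40 on the deposited scale, and Zfp36l1 was 0.44 with the mean of its probe sets. The number of the 7 genes called in Treg against Tconv of lymph node was 0, not 1, with 6 arrays in the fit, with quantile normalization or with the mean of all probe sets, and 0 to 1 with 1 array left out. In thymus it was 1, not 3, with 6 arrays and 1 to 3 with 1 array left out; in fat it was 3 to 4. With the replicate block, which uses the pairing of Treg and Tconv arrays, 5 genes were called in thymus and the block gave Zfp36l2 in fat an adjusted p of 0.000769. The block also added Zfp36l2 to the differences of the Treg effect between fat and lymph node and Rc3h1 to those between fat and thymus, and changed no other call of Treg against Tconv or of the Treg effect. Fat against lymph node gave 3 to 5 called genes in Treg with 1 array left out, and 3 to 3 in Tconv, where the deposited scale gave 5. Thymus against lymph node in Treg gave 0, not 1, with 6 arrays and with the replicate block, and 0 to 2 with 1 array left out; in Tconv it gave 0 throughout. The Treg effect differed between fat and lymph node for 1 to 2 genes and between fat and thymus for 2 to 3 with 1 array left out. Neighbours in the order of levels differed in 7 cases, and in 8 on the deposited scale. Signals below the filter level, as for Zc3h12a outside fat, limit what can be read from small differences. The causes of these changes were not tested.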
